A study of Homo sapiens with 6 samples.

Results

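HCT116 cells, a line established from a human colorectal cancer and carrying a constitutively active β-catenin, were profiled by ChIP-seq of KDM3B in 2 populations. The first expressed a scramble shRNA (HCT116/Scrsh, labelled Con), and the second expressed an shRNA that targets both KDM3A and KDM3B (HCT116/ABsh-1, labelled KD). The sample labels describe an siRNA treatment where the methods describe shRNA, and both populations were cultured for 2 days. Every region of both deposited lists was taken, which gave 25684 KDM3B regions of the 126184 regions in the whole series, 17638 from HCT116/Scrsh and 8046 from HCT116/ABsh-1. A region counted as shared if it overlapped a region of the other list by at least 1 bp. There was 1 library per population and no replicate, so the 2 lists are set side by side without any test. The lists carry no read numbers. The number of called regions depends on sequencing depth and on the efficiency of the pull-down as well as on KDM3B binding, and these cannot be told apart here. The lists also hold no expression, so neither the depletion of KDM3A and KDM3B nor the identity of the cell line could be checked in them. KDM3A and KDM3B were depleted together, so the lists do not separate one from the other.

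KDM3B belongs, with KDM3A and JMJD1C, to the KDM3 family of Jumonji-domain histone demethylases, which remove methyl groups from lysine 9 of histone H3. Methylation at this lysine is a mark of repressed chromatin, and its removal near a transcription start site (TSS) is associated with transcription. In colorectal cancer cells, β-catenin that escapes degradation enters the nucleus and binds TCF/LEF proteins at Wnt target genes, and chromatin enzymes are recruited to such sites.

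The sequences below show the places that head each class of regions, as the 2 regions of highest score with at most 300 bp and no annotated exon. Sequences are the + strand of hg19, and capitals mark a match to one of the 8 searched motifs, of which TCF/LEF (CTTTGA), NF-Y (CCAAT), SP/KLF (GGGCGG) and E-box (CACGTG) occur here on either strand. Repeats were not annotated, so whether a place shown here belongs to a repeat family was not tested. In both lists stood a place in an intron of HFM1 and a place 2143 bp from an assembly gap on chromosome 7.
chr1:91852801-91853100: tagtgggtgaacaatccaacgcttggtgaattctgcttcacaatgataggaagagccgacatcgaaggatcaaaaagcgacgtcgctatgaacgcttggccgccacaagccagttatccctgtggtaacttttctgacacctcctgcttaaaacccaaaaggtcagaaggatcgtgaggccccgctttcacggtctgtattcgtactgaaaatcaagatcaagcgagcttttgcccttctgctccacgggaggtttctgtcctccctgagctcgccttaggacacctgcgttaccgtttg
chr7:61969301-61969600: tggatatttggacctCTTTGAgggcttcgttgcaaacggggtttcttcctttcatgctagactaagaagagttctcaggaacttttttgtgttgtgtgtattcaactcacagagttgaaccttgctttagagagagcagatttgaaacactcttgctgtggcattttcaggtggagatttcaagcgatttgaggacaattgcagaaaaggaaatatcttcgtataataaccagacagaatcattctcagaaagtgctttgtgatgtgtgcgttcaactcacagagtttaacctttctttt
In HCT116/Scrsh only stood a place 43120 bp upstream of ZDHHC6 with 3 TCF/LEF cores, and one 199 bp upstream of UTP3.
chr10:114250301-114250600: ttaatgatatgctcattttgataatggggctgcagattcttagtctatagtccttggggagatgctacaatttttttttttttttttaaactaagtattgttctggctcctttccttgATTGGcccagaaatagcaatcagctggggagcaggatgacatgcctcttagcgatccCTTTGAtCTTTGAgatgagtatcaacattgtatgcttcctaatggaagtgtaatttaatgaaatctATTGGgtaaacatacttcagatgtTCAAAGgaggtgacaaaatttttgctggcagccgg
chr4:71553901-71554200: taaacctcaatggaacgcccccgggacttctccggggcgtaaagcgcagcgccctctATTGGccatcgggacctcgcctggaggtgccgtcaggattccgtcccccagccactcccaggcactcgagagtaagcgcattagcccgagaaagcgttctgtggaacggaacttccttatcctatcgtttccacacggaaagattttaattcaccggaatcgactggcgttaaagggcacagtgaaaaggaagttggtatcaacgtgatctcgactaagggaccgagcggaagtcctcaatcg
In HCT116/ABsh-1 only stood 2 places near assembly gaps of chromosomes 19 and 10.
chr19:27732001-27732300: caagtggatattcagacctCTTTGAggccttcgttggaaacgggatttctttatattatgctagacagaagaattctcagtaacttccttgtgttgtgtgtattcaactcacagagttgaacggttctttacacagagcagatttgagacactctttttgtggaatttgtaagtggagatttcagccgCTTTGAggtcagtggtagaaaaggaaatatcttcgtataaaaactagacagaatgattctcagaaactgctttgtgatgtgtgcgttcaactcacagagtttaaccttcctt
chr10:42385101-42385300: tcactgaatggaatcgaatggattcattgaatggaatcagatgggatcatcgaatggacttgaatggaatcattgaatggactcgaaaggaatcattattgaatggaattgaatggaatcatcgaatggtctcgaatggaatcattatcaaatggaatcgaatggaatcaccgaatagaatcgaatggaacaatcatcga
The chromosome 19 sequence was identical to the chromosome 7 sequence at 87.5% of 296 aligned bases, although the first was in HCT116/ABsh-1 only and the second in both lists. The chromosome 10 sequence of 200 bp held the letters ATTCC 9 times on either strand, a count made after the sequence was seen. For comparison, the highest such regions within 1 kb of a protein-coding TSS are shown, a choice also made after the values were seen. They lay 224 bp upstream of KLHDC10 (both lists) and 338 bp upstream of RCAN1 (HCT116/ABsh-1 only), and the corresponding region of HCT116/Scrsh only was that of UTP3.
chr7:129710001-129710300: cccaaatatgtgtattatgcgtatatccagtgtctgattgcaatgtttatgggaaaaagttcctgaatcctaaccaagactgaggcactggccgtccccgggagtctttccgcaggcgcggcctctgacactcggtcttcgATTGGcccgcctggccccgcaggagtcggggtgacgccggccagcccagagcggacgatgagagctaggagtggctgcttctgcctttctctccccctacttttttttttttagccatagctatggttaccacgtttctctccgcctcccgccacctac
chr21:35987601-35987900: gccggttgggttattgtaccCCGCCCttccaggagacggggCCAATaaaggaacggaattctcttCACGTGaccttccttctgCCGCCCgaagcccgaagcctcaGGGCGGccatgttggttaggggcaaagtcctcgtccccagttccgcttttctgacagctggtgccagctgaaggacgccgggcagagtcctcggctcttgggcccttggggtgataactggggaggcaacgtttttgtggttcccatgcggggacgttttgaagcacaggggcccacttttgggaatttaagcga
The region 384 bp upstream of AXIN2, a negative regulator and target of Wnt signalling, was in HCT116/Scrsh only, with a score of 18, and held 1 SP/KLF match and no TCF/LEF core.
chr17:63558101-63558200: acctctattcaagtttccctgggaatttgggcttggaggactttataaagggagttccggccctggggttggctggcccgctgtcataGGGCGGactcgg

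Fewer and narrower KDM3B regions were called in HCT116/ABsh-1, and most of the HCT116/Scrsh regions had no counterpart there. The 17638 regions of HCT116/Scrsh covered 3.21 Mb and the 8046 of HCT116/ABsh-1 covered 1.31 Mb. HCT116/ABsh-1 thus had 0.456 times as many regions and 0.407 times as many covered bases. Of the HCT116/Scrsh regions, 4536 (25.7%, Wilson 95% confidence interval 25.1 to 26.4%) overlapped a region of HCT116/ABsh-1. Of the HCT116/ABsh-1 regions, 4538 (56.4%, 55.3 to 57.5%) overlapped one of HCT116/Scrsh. These and later intervals describe counting error alone, and regions next to each other are not independent. This left 13102 regions in HCT116/Scrsh only and 3508 in HCT116/ABsh-1 only. In bases, the 670900 bases in common made up 20.9% of HCT116/Scrsh, 51.3% of HCT116/ABsh-1 and 17.4% of both together.

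Many regions without an overlap in the other list lay close to one of its regions, more so in HCT116/ABsh-1. Since every region was built from 100-bp windows on a common grid, a pair can touch without overlap. Of the regions in HCT116/ABsh-1 only, 706 (20.1%) touched a region of HCT116/Scrsh, and 1065 (30.4%) lay within 1 kb of one. Of those in HCT116/Scrsh only, 702 (5.36%) touched and 1233 (9.41%) lay within 1 kb. The median distance to the other list was 55.2 kb for HCT116/Scrsh only and 13.2 kb for HCT116/ABsh-1 only. Since the HCT116/Scrsh list was longer, a place in HCT116/ABsh-1 had more regions to meet. More than 10 kb from any region of the other list lay 78.2% of the regions in HCT116/Scrsh only and 53.5% of those in HCT116/ABsh-1 only.

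Whether a region was found in both lists went with its score, a whole number that the authors gave each region and whose meaning is not stated. It was used to order regions within a list and to group them into bands with the same limits in both lists. Whether equal scores mean the same in both lists is not known. Of the HCT116/Scrsh regions with a score of 2 to 10, 39 of 1782 (2.19%, 1.60 to 2.98%) were shared. The share was 21.4% at scores of 21 to 30, 50.9% at 51 to 75 and 76.8% at 101 to 150. Of those with a score over 200, 51 of 53 (96.2%, 87.2 to 98.96%) were shared. In HCT116/ABsh-1 the share was 17.1% at scores of 2 to 10, 70.7% at 21 to 30 and 95.8% at 76 to 100. It was 84.6% (33 of 39) over 200, where 43.6% of the regions lay within 100 kb of an assembly gap, against 9.43% of the HCT116/Scrsh regions with such scores.

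Width followed the same order. A single 100-bp window made up 62.6% of the regions in HCT116/Scrsh only and 78.9% of those in HCT116/ABsh-1 only. Among regions found in both lists the single windows were 28.4% of the HCT116/Scrsh regions and 47.7% of the HCT116/ABsh-1 regions. In HCT116/Scrsh, 13.6% of single windows and 54.6% of regions of at least 400 bp were shared. In HCT116/ABsh-1 these shares were 43.9% and 87.1%. So 676 regions of at least 400 bp were in HCT116/Scrsh only, and 52 were in HCT116/ABsh-1 only.

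At places found in both lists, the HCT116/ABsh-1 region tended to be the narrower one. Of 4538 pairs of a HCT116/ABsh-1 region and the HCT116/Scrsh region it overlapped most, the HCT116/Scrsh region was wider in 2197 (48.4%), equally wide in 1399 (30.8%) and narrower in 942 (20.8%). The mean widths were 246 and 189 bp. In 3205 pairs (70.6%) the HCT116/ABsh-1 region lay entirely within the HCT116/Scrsh region, and in 1126 (24.8%) both had the same start and end. The centres were a median of 50 bp apart. The order of the scores was only partly kept, with a Spearman correlation of 0.40 over the 4538 pairs, which share the genome position and hence base composition and mappability. Of the 102 highest regions of HCT116/ABsh-1 (ties at rank 100 included), 91 were in the HCT116/Scrsh list, and 37 overlapped one of its 101 highest.

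With lists of equal length the difference in number is gone by construction. Since the score went with width, cutting HCT116/Scrsh alone by score also keeps its wider regions. The 8046 highest regions of HCT116/Scrsh had scores of at least 26, the value of 288 tied regions of which the widest 56 were kept. They covered 2.17 Mb, so that HCT116/ABsh-1 covered 0.603 times as much. Single windows made up 8.91% of them, against 61.3% of the HCT116/ABsh-1 list. Of these regions 44.3% overlapped one of HCT116/ABsh-1, and 44.3% of the HCT116/ABsh-1 regions overlapped one of them. Another 971 HCT116/ABsh-1 regions overlapped only HCT116/Scrsh regions of lower score. When both lists were cut alike, their highest 500 regions covered 265.0 kb in HCT116/Scrsh and 200.2 kb in HCT116/ABsh-1, and their highest 4000 covered 1349 and 894 kb. When the highest 500, 1000, 2000 and 4000 regions of each list were taken, 39.6%, 39.8%, 42.8% and 47.8% of the HCT116/ABsh-1 regions overlapped one of HCT116/Scrsh. So between 39.6% and 47.8% of an equal number of regions coincided at each of the 5 lengths tried. Of the highest 500 regions of HCT116/ABsh-1, 93.2% lay somewhere in the full HCT116/Scrsh list, and 84.6% of the highest 500 of HCT116/Scrsh lay in the full HCT116/ABsh-1 list.

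Each class of regions gathered at TSSs, and those in HCT116/ABsh-1 only did so most in the full lists. The centre lay within 1 kb of an annotated TSS for 32.3% (30.97 to 33.7%) of the HCT116/Scrsh regions found in both lists and 34.8% (34.0 to 35.6%) of those in HCT116/Scrsh only. It did for 39.9% (38.3 to 41.5%) of those in HCT116/ABsh-1 only. Among all 28586281 assembled 100-bp windows of the genome the share was 7.503%. Within 5 kb the shares were 55.07%, 54.97% and 59.3%, against 26.9% of the windows. The difference between HCT116/ABsh-1 only and HCT116/Scrsh only at 5 kb was 4.35 percentage points (95% interval 2.52 to 6.19). It was −0.38 (−2.42 to 1.66) when HCT116/Scrsh was reduced to its 8046 highest regions, so it did not hold at equal list length. Among regions of at least 200 bp, 52.4% of those in HCT116/ABsh-1 only and 42.6% of those in HCT116/Scrsh only lay within 1 kb of a TSS, against 34.3% of the HCT116/Scrsh regions found in both lists.

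Among HCT116/Scrsh regions with scores above 30, those at a TSS were shared less often than those farther away. With scores of 31 to 75, 32.4% (30.3 to 34.5%) of the 1895 regions within 1 kb of a TSS were shared, against 42.1% (39.2 to 45.1%) at 1 to 5 kb and 41.8% (39.8 to 43.8%) beyond 5 kb. With scores over 75 the shares were 66.3%, 79.8% and 77.8%. With scores of 16 to 30 they were 17.6%, 19.3% and 17.1%, with overlapping intervals. With scores under 16 the order was the other way, with 5.54% (4.55 to 6.73%) within 1 kb and 3.05% (2.42 to 3.85%) beyond 5 kb. In HCT116/ABsh-1 the shares within 1 kb, at 1 to 5 kb and beyond 5 kb were 80.1%, 92.9% and 88.1% with scores of 31 to 75. With scores over 75 they were 96.5% (92.6 to 98.4%), 98.7% and 85.2% (77.9 to 90.5%), so there the regions beyond 5 kb were shared least. Within 1 kb of a TSS, 63.6% of the HCT116/Scrsh regions found in both lists lay upstream of it, and 56.6% of those in HCT116/Scrsh only did.

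Mean base composition also differed between the classes, less so within the HCT116/ABsh-1 list. Mean GC content was 55.01% in the HCT116/Scrsh regions found in both lists, 53.1% in HCT116/Scrsh only and 56.0% in HCT116/ABsh-1 only, against 40.9% in the genome windows. CpG dinucleotides per 100 bp numbered 3.85, 3.16 and 4.51, against 0.975. The HCT116/ABsh-1 regions found in both lists had a mean GC content of 55.6% and 3.99 CpG per 100 bp. The regions in HCT116/ABsh-1 only of at least 200 bp were richest, with a GC content of 58.9% and 5.97 CpG per 100 bp, against 54.2% and 3.63 in HCT116/Scrsh only. Whether recovery of GC-rich DNA differed between the libraries was not tested.

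The motif of AP-1, the FOS and JUN factors, was more frequent in 100-bp regions of HCT116/Scrsh only than in those of the other classes, away from TSSs. Motifs were counted on both strands in regions of exactly 100 bp, beside all assembled 100-bp windows at the same distance from a TSS. Beyond 5 kb from a TSS, TGANTCA occurred in 379 of 4031 regions in HCT116/Scrsh only (9.40%, 8.54 to 10.3%). It occurred in 33 of 640 HCT116/Scrsh regions found in both lists (5.16%, 3.70 to 7.15%) and in 69 of 1076 such HCT116/ABsh-1 regions (6.41%, 5.10 to 8.04%). In HCT116/ABsh-1 only it occurred in 69 of 1173 (5.88%, 4.67 to 7.38%), and in the genome windows in 3.17%. Mean GC content was 49.0% in HCT116/Scrsh only and 52.3%, 51.9% and 49.8% in the other classes in this order, against 39.8% of windows. The part of base composition was not tested. In regions of 200 bp, counted after these values were seen, it occurred in 16.9% (14.99 to 19.05%) of those in HCT116/Scrsh only and 10.8% (8.74 to 13.2%) of the HCT116/Scrsh regions in both lists, with 12.9% (9.03 to 18.1%) of those in HCT116/ABsh-1 only, whose interval overlaps the first. In regions of 300 bp it occurred in 28.7% (24.5 to 33.4%) and 14.2% (11.1 to 18.0%), and in 4 of 37 in HCT116/ABsh-1 only (10.8%, 4.29 to 24.7%). For 100-bp regions with scores of 16 to 30 the shares were 8.85% and 5.12%, and for scores of 2 to 15 they were 9.83% of 2146 and 11.8% of only 68, within counting error. Within 1 kb of a TSS the classes did not separate, at 3.44% and 3.68%, with 3.16% in HCT116/ABsh-1 only and 2.73% of windows.

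Promoter motifs were frequent in every class. Within 1 kb of a TSS, the SP/KLF box GGGCGG occurred in 22.95% of 100-bp HCT116/Scrsh regions found in both lists, 19.4% (17.9 to 21.05%) of those in HCT116/Scrsh only and 25.3% (22.7 to 28.1%) of those in HCT116/ABsh-1 only, against 5.27% of windows. The ETS site CCGGAAG occurred in 3.97%, 4.70% and 4.05%, against 0.633% of windows. The TCF/LEF core CTTTGA, through which β-catenin reaches Wnt target genes, was less frequent over all 100-bp regions than in the genome. It occurred in 5.67% of all 100-bp HCT116/Scrsh regions in both lists, 6.42% in HCT116/Scrsh only and 4.95% in HCT116/ABsh-1 only, against 7.15% of windows, whose GC content is lower. Beyond 5 kb it occurred in 7.76% (6.98 to 8.63%) of regions in HCT116/Scrsh only and 7.40% of windows. Of the remaining motifs over all 100-bp regions, the E-box CACGTG occurred in 2.56%, 2.07% and 2.02% of these classes and 0.899% of windows, and NRF1 GCATGCG in 0.621%, 0.451% and 0.831% and 0.266% of windows. NF-Y CCAAT occurred in 10.2%, 13.1% and 11.9% and 14.7% of windows, and YY1 AAGATGG in 3.11%, 2.18% and 1.73% and 1.98% of windows. A match is only a run of letters and does not show that the factor was bound.

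The highest 3 scores of each list fell at the same places, next to gaps in the genome assembly. The region on chromosome 6 at chr6:58776401-58779300, 866 bp from a gap, had the highest score of HCT116/Scrsh (6985) and its counterpart the highest of HCT116/ABsh-1 (6248). It was also the widest region of both lists, with 2900 and 2800 bp, and PRIM2, the nearest protein-coding gene, starts 1.38 Mb away. Places at chr1:121484501-121485300 and chr21:9827001-9827500, next to gaps, and chr1:91852801-91853100 held ranks 2, 3 and 4 in both lists. Of the 25 highest regions, 5 of HCT116/Scrsh and 14 of HCT116/ABsh-1 lay within 100 kb of a gap. Of the 8 highest regions in HCT116/ABsh-1 only, 7 did, at 3 places on chromosome 18 near 18.5 Mb, 2 on chromosome 10, 1 on chromosome 19 and 1 on chromosome 16. Over whole classes such places were rare, with 1.48% of the regions in HCT116/Scrsh only, 1.26% of the HCT116/Scrsh regions in both lists and 2.59% (2.12 to 3.17%) of those in HCT116/ABsh-1 only. Without them the shared share was 25.8% of HCT116/Scrsh and 56.8% of HCT116/ABsh-1.

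Of the regions found in both lists, the 8 highest by the HCT116/Scrsh score within 5 kb of a protein-coding TSS included 4 at histone genes. H2BC4, which encodes a histone H2B, held chr6:26123001-26123800 with a score of 688 (rank 5) in HCT116/Scrsh and 609 (rank 7) in HCT116/ABsh-1. The region at HIST1H4B, a histone H4 gene at chr6:26026601-26027800, had the same start and end in both lists and was the third widest of HCT116/ABsh-1, with 1200 bp. The region at H4C5 (chr6:26204601-26205200), another histone H4 gene, also had identical ends in both. The region near H2BC5 was 1200 bp wide in HCT116/Scrsh and 800 bp in HCT116/ABsh-1. Outside the histone genes, the same 8 also held ZNF335, encoding a zinc finger protein, MRPS23, encoding a mitochondrial ribosomal protein, and CUTC. Their widths were 900 and 800 bp at ZNF335, 800 and 500 bp at MRPS23, and 900 and 600 bp at CUTC. HEXIM1, which encodes an inhibitor of the elongation factor P-TEFb, had the second widest region of HCT116/Scrsh, 1900 bp at chr17:43225101-43227000 (rank 11). In HCT116/ABsh-1 its counterpart was 300 bp wide, at rank 1745. The order was the other way at B4GALT7, a glycosyltransferase gene named after its values were seen, where a region of 800 bp at rank 6 of HCT116/ABsh-1 met one of 300 bp at rank 2042 of HCT116/Scrsh. The third widest, 1600 bp at UBE2D3, encoding a ubiquitin-conjugating enzyme, faced 200 bp in HCT116/ABsh-1. The second widest of HCT116/ABsh-1, 1400 bp and 24.0 kb from CPN2, was as wide in HCT116/Scrsh.

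Within 5 kb of a protein-coding TSS, the 8 highest regions in HCT116/Scrsh only ranged from 500 to 1300 bp in width and from 42 to 168 in rank within their list. They lay at PLEC, which encodes the cytoskeletal linker plectin, RPL13, a ribosomal protein gene, DDX5, encoding an RNA helicase, BBC3, encoding the pro-apoptotic protein PUMA, PPRC1, encoding a PGC-1-related coactivator, MYC, NSMCE2 and ELOC, encoding elongin C. The nearest HCT116/ABsh-1 region was 400 bp away at RPL13, 3800 bp at MYC and 199 kb at ELOC. The regions at BBC3 (chr19:47729901-47731200) and MYC (chr8:128750201-128751500) were both 1300 bp wide, and both overlapped an H3K9me2 region of HCT116/ABsh-1. The other regions named here did not, and of all regions in HCT116/Scrsh only, of every width, 0.519% did. The HCT116/ABsh-1 region at B4GALT7, at rank 6 and wider than its HCT116/Scrsh counterpart, overlapped one too. The DDX5 region, in a UTR, lay 41.5 kb from an assembly gap.

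The 8 highest regions of this kind in HCT116/ABsh-1 only were more GC-rich. They held ranks 124 to 480 of their list, had GC contents of 67.3 to 73.8% and held 11 to 14 CpG per 100 bp. They lay in the overlapping genes ENSG00000288000 and SRSF6, the latter encoding a splicing factor, and at IQANK1, GVQW3, MVD, FBXL22, CNOT8, BTBD9 and MELK, encoding a cell cycle kinase. CNOT8 encodes a subunit of the CCR4-NOT deadenylase. In HCT116/Scrsh only the 8 regions had GC contents of 47.0 to 66.7% and 0.2 to 8.88 CpG per 100 bp. At IQANK1 and CNOT8 the nearest HCT116/Scrsh region lay only 100 bp away, whereas at MVD it lay 74.0 kb away and at MELK 156 kb away.

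Protein-coding genes were counted as marked where a region of the list lay within 5 kb of any of their annotated TSSs. Of 20163 such genes, 4031 (20.0%) were marked in HCT116/Scrsh only, 3018 (15.0%) in both lists and 855 (4.24%) in HCT116/ABsh-1 only, and 12259 in neither. Thus 77.9% of the genes marked in HCT116/ABsh-1 were also marked in HCT116/Scrsh, and 42.8% the other way. With the 8046 highest regions of HCT116/Scrsh, 1780 genes (8.83%) were marked in HCT116/Scrsh only, 2179 (10.8%) in both and 1694 (8.4%) in HCT116/ABsh-1 only. The shortened HCT116/Scrsh list marked 3959 genes, down from 7049, and the HCT116/ABsh-1 list marked 3873. Genes marked in both lists belong to each of these totals, so close totals leave close numbers on one side only. The cut brought the totals together, so the similar numbers of 1780 and 1694 are no separate result. The percentages of genes given above are the background for the gene lists that follow. Unless stated otherwise, the genes named from a list are those with the most covered bases in HCT116/Scrsh. That choice by itself favours lower values in HCT116/ABsh-1. Of the regions within 5 kb of a protein-coding TSS, 25.1% of 7657 in HCT116/Scrsh were shared, and 53.0% of 3615 in HCT116/ABsh-1.

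Core histone genes were the only one of the 13 gene lists with members marked in both lists and no member marked in one list only. Of 58 genes, 36 were marked in both lists and 22 in neither, at full and at equal list length. The genes lie in clusters, so neighbours share regions, and the 36 genes rest on 42 regions of HCT116/Scrsh and 36 of HCT116/ABsh-1. Of the 42, 25 (59.5%, 44.5 to 73.0%) overlapped an HCT116/ABsh-1 region, against 25.1% of the 7657 HCT116/Scrsh regions near all protein-coding genes. Their median score was 85, against 24, and 68.4% of all HCT116/Scrsh regions with scores of 76 to 100 were shared. The part of score in this difference was not tested. The covered length was 17.4 kb in HCT116/Scrsh, compared with 11.7 kb in HCT116/ABsh-1. Near all protein-coding genes it was 1529.7 and 632.8 kb. Within 5 kb of the canonical TSS, H2AC17 and H2BC17, neighbours on chromosome 6, both had 1700 covered bases in HCT116/Scrsh, compared with 900 in HCT116/ABsh-1. The same values held for the neighbours H2AC20 and H2AC21 on chromosome 1.

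The 31 Wnt target genes were taken from the study, which chose them for this signalling pathway, so their number of marked genes is no independent evidence. In both lists 10 were marked, 9 in HCT116/Scrsh only, 2 in HCT116/ABsh-1 only and 10 in neither. A gene marked in both lists need not be marked at the same place. Of their 37 HCT116/Scrsh regions, 4 (10.8%, 4.29 to 24.7%) overlapped one of the 13 HCT116/ABsh-1 regions, against 25.1% near all protein-coding genes. Their median score was 18, against 24, and low scores went with low shares in the whole list. The part of score in this difference was not tested. At MYC, which encodes a growth-promoting transcription factor, 5 regions with 2000 bases in HCT116/Scrsh faced 1 region with 200 bases in HCT116/ABsh-1. The single overlap there lay about 2 kb upstream of the canonical TSS (offsets of −2027 and −2177 bp), and the 1300-bp region with its centre 2373 bp downstream had no counterpart. At CCND1, encoding cyclin D1, 5 regions with 800 bases faced 2 with 400. FGF18, encoding a growth factor, had 600 bases and 300, and DKK1, encoding a secreted Wnt antagonist, 400 and 300. AXIN2 had 4 regions with 335 bases near its TSS in HCT116/Scrsh, compared with none in HCT116/ABsh-1. BIRC5, encoding survivin, and EFNB1, encoding an ephrin, had the 2 gene windows with a region in HCT116/ABsh-1 only, of 100 bases each. They are named after their values were seen, as is AXIN2 beyond its sequence. At equal list length 5 of the 31 were marked in both lists, 5 in HCT116/Scrsh only and 7 in HCT116/ABsh-1 only.

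Immediate-early genes, which respond to growth signals within minutes and include the AP-1 subunits, were often marked. Of 33, 16 were marked in both lists, 8 in HCT116/Scrsh only and 2 in HCT116/ABsh-1 only. Of their 50 HCT116/Scrsh regions, 10 were shared, with an interval of the share (11.2 to 33.0%) that holds the 25.1% near all protein-coding genes. Besides MYC, the most covered bases in HCT116/Scrsh were at IER2 (1625, against 400 in HCT116/ABsh-1), IER3 (1600 against 0) and ZFP36, encoding an mRNA decay factor (900 against 100). The summed covered length of the regions at the 33 genes was 12.8 kb in HCT116/Scrsh, compared with 4.2 kb in HCT116/ABsh-1. Near all protein-coding genes it was 1529.7 and 632.8 kb. NR4A3 went the other way, as described below. At equal list length 9 were marked in both lists, 5 in HCT116/Scrsh only and 9 in HCT116/ABsh-1 only.

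Genes of basic metabolism and protein synthesis were marked in larger shares than protein-coding genes as a whole. Of 19 glycolysis genes, 7 were marked in both lists, 8 in HCT116/Scrsh only and 3 in HCT116/ABsh-1 only. At equal list length these were 6, 4 and 4. PKM, encoding pyruvate kinase, had 1300 covered bases in HCT116/Scrsh, compared with 100 in HCT116/ABsh-1, GAPDH had 800 and 100, TPI1 had 795 and 100, and ALDOA had 500 and 0. Of the 19, 9 had fewer covered bases in HCT116/ABsh-1 and 4 had more, among them PGK1 with 0 and 300. Over all 19881 protein-coding genes 4582 had fewer, 1217 had more and 548 had the same number above 0. Of 86 cytosolic ribosomal protein genes, 29 were marked in both lists, 33 in HCT116/Scrsh only and 6 in HCT116/ABsh-1 only, 25, 19 and 10 at equal list length, and 53 had fewer covered bases in HCT116/ABsh-1 against 8 with more. RPS2 had 1500 bases and 200, RPL13 990 and 600, RPL8 926 and 100, and RPL18 900 and 200. Of 78 mitochondrial ribosomal protein genes, 15, 33 and 5 were marked in the same order, and 11, 19 and 9 at equal list length. MRPL34 had 900 and 400 bases, and MRPS34 700 and 0. Of 48 proteasome subunit genes, 11, 16 and 2 were marked, and 10, 9 and 3 at equal list length. PSMD9 had 700 and 400 bases, and PSME2 582 and 0.

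Epithelial keratin and junction genes were marked in HCT116/ABsh-1 about as often as protein-coding genes as a whole, with 17.4% against 19.2%. Of 23, 2 were marked in both lists, 8 in HCT116/Scrsh only, 2 in HCT116/ABsh-1 only and 11 in neither, and at equal list length 1, 5 and 3 in the first 3 of these classes. Of their 27 HCT116/Scrsh regions 1 was shared (interval of the share 0.657 to 18.3%), against 25.1% near all protein-coding genes. CLDN4, encoding a tight junction claudin, had 4 regions with 1300 bases in HCT116/Scrsh, compared with none in HCT116/ABsh-1. TJP3 had 600 bases and 0, CLDN7 300 and 0, and CDH1, encoding E-cadherin, 200 and 0. Of the 23, 7 had fewer covered bases in HCT116/ABsh-1 and 1 had more, PKP3 with 0 and 200. Over all protein-coding genes 4582 had fewer and 1217 had more.

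HOX genes, the clustered developmental regulators, also had no member marked in HCT116/ABsh-1 only. Of 39, 10 were marked in both lists and 6 in HCT116/Scrsh only, and at equal list length 10 and 4. Of their 9 HCT116/ABsh-1 regions 8 were shared (interval of the share 56.5 to 98.0%), against 53.0% near all protein-coding genes. Of their 20 HCT116/Scrsh regions 8 were shared (21.9 to 61.3%), against 25.1%. Their median score was 47 in HCT116/ABsh-1, against 16 near all protein-coding genes, and 44.5 in HCT116/Scrsh, against 24. Of all regions with scores of 31 to 50, 83.4% were shared in HCT116/ABsh-1 and 30.6% in HCT116/Scrsh. The part of score in the shares of the HOX regions was not tested. HOXA9 had 900 bases in HCT116/Scrsh, compared with 600 in HCT116/ABsh-1, HOXA10 662 and 0, HOXB8 600 and 400, and HOXB6 600 and 0. Over all protein-coding genes 4582 had fewer covered bases in HCT116/ABsh-1 and 1217 had more. Of the 39 HOX genes, 9 had fewer and 2 had more, HOXB3 (298 and 800) and HOXA7 (400 and 600). These windows too share regions between neighbouring genes.

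Genes that are silent in most tissues were seldom marked. Of 399 olfactory receptor genes, 4 were marked in both lists, 5 in HCT116/Scrsh only and 1 in HCT116/ABsh-1 only. At equal list length these were 1, 3 and 4. Of 94 keratin-associated protein genes, 1 was marked in HCT116/Scrsh, compared with none in HCT116/ABsh-1, and at equal list length none was marked in either. The zinc finger genes of chromosome 19, a large clustered family, were marked less often than protein-coding genes as a whole. Of 246, 16 were marked in both lists, 40 in HCT116/Scrsh only and 10 in HCT116/ABsh-1 only. At equal list length these were 12, 20 and 14. ZNF524 had 800 covered bases in HCT116/Scrsh, compared with 0 in HCT116/ABsh-1, and ZNF576 had 600 and 400.

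Of the KDM3 family itself, KDM3A had 1 region of 400 bp in HCT116/Scrsh (chr2:86668001-86668400, score 75, centre 294 bp upstream of the canonical TSS) and none in HCT116/ABsh-1. KDM3B had no region that close to a TSS in either list, 5 kb being the limit. JMJD1C had a region of 100 bp 313 bp upstream of its canonical TSS in HCT116/ABsh-1 only, with a score of 9, and a HCT116/Scrsh region near another of its TSSs.

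Within 5 kb of the canonical TSS, 4582 of 19881 protein-coding genes had fewer covered bases in HCT116/ABsh-1, 1217 had more and 548 had the same number above 0. On average a gene had 72.2 covered bases in HCT116/Scrsh, compared with 29.3 in HCT116/ABsh-1. The largest differences toward HCT116/Scrsh, of 1600 to 2000 bases, were at ID1, MYC, BRD2, TRAF7, GDF15, HEXIM1, FLOT1 and IER3. ID1, encoding an inhibitor of basic helix-loop-helix factors, had 5 regions with 2500 bases and 3 with 500. A region of 1100 bp with its centre 1858 bp downstream of the ID1 start was matched by a single window of 100 bp, whereas the region about 3.3 kb downstream was 400 bp wide in HCT116/Scrsh and 300 bp in HCT116/ABsh-1. BRD2, encoding a bromodomain protein that binds acetylated histones, had 1871 and 100 bases, and within its 1300-bp region a 100-bp window remained. GDF15, encoding a stress-induced cytokine, had 1900 and 200 bases, and TRAF7 had 2118 and 400. FLOT1 and IER3 are neighbours on chromosome 6 and share the same 3 regions, of 300, 500 and 800 bp, none of which overlapped a region of HCT116/ABsh-1.

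Differences toward HCT116/ABsh-1 were smaller, with 600 to 900 bases at the 8 genes at the top. MVD, encoding an enzyme of the mevalonate pathway, had no region in HCT116/Scrsh and 1 of 900 bp at its TSS in HCT116/ABsh-1 (chr16:88729001-88729900, score 80). NR4A3, encoding an orphan nuclear receptor of the immediate-early class, had 300 bases in HCT116/Scrsh, compared with 1100 in HCT116/ABsh-1. Its 2 regions with centres 2217 and 1517 bp upstream of the TSS were in HCT116/ABsh-1 only, and 1 region at the TSS was in both lists. FARS2 and LYRM4 start in opposite directions from the same stretch, where 2 windows of 100 bp in HCT116/Scrsh lay within 1 region of 800 bp in HCT116/ABsh-1. TMEM135 had regions of 200 and 800 bp in the same order, and ADAT3 and SCAMP4, which start at the same position, had 100 and 700 bp. ANXA11, encoding an annexin, had 100 and 700 bases, but its HCT116/Scrsh region only touched one of the 3 in HCT116/ABsh-1.

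The ratio of region numbers differed between chromosomes. HCT116/ABsh-1 had 0.533 (95% interval 0.479 to 0.592) times as many regions as HCT116/Scrsh on chromosome 19, 0.529 (0.471 to 0.593) on chromosome 10 and 0.514 (0.465 to 0.569) on chromosome 17. The ratio was 0.330 (0.268 to 0.406) on chromosome X, 0.365 (0.295 to 0.453) on chromosome 18 and 0.367 (0.298 to 0.453) on chromosome 13. Across chromosomes 1 to 22 and X the ratio went with the GC content of the chromosome, with a Spearman correlation of 0.63 over 23 chromosomes of the same 2 libraries. On chromosome X 16.8% of the HCT116/Scrsh regions were shared, and on chromosome 20 the share was 29.96%. It was 8.70% on chromosome Y, which held 46 HCT116/Scrsh regions. The median HCT116/Scrsh score was 14 on chromosome X and 22 on chromosome 20, and low scores went with low shares. The parts of base composition and of score in these differences were not tested.

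KDM3B regions were compared with those of H3K9me2, the mark that KDM3 enzymes remove. The H3K9me2 list of HCT116/Scrsh reached 0.0590% of the 100-bp windows of the genome, and that of HCT116/ABsh-1 0.967%. Among KDM3B regions of 100 bp, 9 of 8195 in HCT116/Scrsh only (0.110%, 0.0578 to 0.209%) overlapped H3K9me2 of the same cells, with an interval that holds the share of all windows. H3K9me2 of HCT116/ABsh-1 overlapped 0.537% (0.4002 to 0.720%) of these places, below the share of all windows. It overlapped 0.139% (0.0472 to 0.407%) of the HCT116/ABsh-1 regions of 100 bp in both lists, and 1.59% (1.19 to 2.13%) of those in HCT116/ABsh-1 only, below and above that of all windows. These counts on windows were made after the values for regions of every width were seen, which were 0.519%, 0.639% and 1.88% in the same order.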

How the data were processed

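The authors aligned reads of 50 bp to hg19 with Bowtie, allowing 2 mismatches, counted a position once, and tested windows of 100 bp against input with a Poisson model. For each ChIP they deposited the called regions with a score, whose meaning is not given in the sources used here. The deposited score served here to order the regions of its own list and to group them into bands with the same limits in both lists. Although the methods ask for neighbouring windows of equal significance, single 100-bp windows made up 53.8% of the HCT116/Scrsh list. The depth of the libraries is unknown. The input libraries were left out, since only the called regions were used.

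From the lists, overlaps, distances, covered bases and shares with Wilson 95% intervals were computed, and differences of shares with large-sample 95% intervals. Genes were those of GENCODE release 44 in its hg19 version, and GC content, CpG, motifs and assembly gaps of at least 10 kb came from the hg19 sequence. With 1 library per side no test was made. The members, gene lists and motifs were chosen with earlier results of these data known. The genes named are those nearest to the 8 highest regions of each class within 5 kb of a protein-coding TSS, those with the 8 largest differences in covered bases in each direction, the KDM3 family, up to 4 genes of each list with the most covered bases in HCT116/Scrsh, and those at the 3 widest regions. The scripts were tested on simulated lists. Alternatives were other overlap rules, list lengths, minimum widths, joined neighbours, TSS distances and annotations. Python 3.11.15 with numpy 2.4.6, pandas 2.3.3, scipy 1.17.1 and Biopython 1.88 (pairwise alignment) was used.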

Additional observations from a re-analysis of the deposited data

How the results depend on the processing

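Of 40 values under alternatives to the 8 main results, 19 stayed within the counting interval of the main value, or within 1.5 times a gene count. Another 20 moved beyond these limits and 1 reversed in sign. Among the 19 is the number ratio with the highest 50% of each list, which equals the main value by construction. Only regions of at least 200 bp gave ratios of 0.382 in number and 0.360 in covered bases and shared shares of 22.3% (HCT116/Scrsh) and 58.3% (HCT116/ABsh-1). Keeping only the 50% of regions that scored highest in their list gave a base ratio of 0.394 and shared shares of 31.2% and 68.3%. Counting regions within 1 kb as shared gave 32.7% and 69.6%, and joining regions less than 1 kb apart gave 26.8% and 57.7%. Equal list length gave a base ratio of 0.603, shared shares of 44.3% for HCT116/Scrsh and 44.3% for HCT116/ABsh-1 (44.5% with the narrowest ties kept), and 1780 and 1694 genes marked on one side only, against 4031 and 855. The share of centres near a TSS in shared minus HCT116/Scrsh-only regions, 0.10 percentage points at 5 kb, was −2.47 at 1 kb, −1.59 with protein-coding TSSs and −4.57 at equal list length. For HCT116/ABsh-1 only minus HCT116/Scrsh only, 4.35 points became −0.38 at equal list length, with an interval that includes 0. Leaving out the 251 HCT116/Scrsh and 146 HCT116/ABsh-1 regions within 100 kb of an assembly gap, an alternative added after the data were seen, moved none of the 8 results beyond these limits. No paired analysis was possible because there is 1 library per side and no test was made. Without read numbers, a region absent from the shorter list may have been below detection there.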
